A study of Mus musculus with 4 samples.

Results

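The hair follicle stem cell genes described here are 10 genes that mark or regulate the stem and progenitor cells of the mouse hair follicle: Lgr5, Lgr6, Sox9, Lhx2, Cd34, Tcf7l1, Nfatc1, Gli1, Lrig1 and Runx1. They were measured with 4 two-colour Agilent arrays in cultured epidermal keratinocytes. All array probes carrying one of these names, or the older name Tcf3 for Tcf7l1, were taken, which gave 17 probes of 41174 gene probes and 10 of 27670 gene names. The probes named Tcf3 carry the RefSeq accession NM_009332, which is Tcf7l1. Every keratinocyte culture carried K5-Cre, a recombinase driven by the keratin 5 promoter of basal epidermal cells, and a loxP-flanked allele of Casp8, the gene of caspase-8. Beside it, Casp-8F/-K5-Cre cultures (here F/-) had a null allele, and their controls (Casp-8F/+K5-Cre, here F/+) a wild-type allele. The mice were labelled P3 in age, and keratinocytes of 2 mice of each genotype were grown in a keratinocyte medium free of serum, to which epidermal growth factor and pituitary extract were added. RNA was taken at passage 3 and at passage 1, which gave 8 RNA samples and 2 arrays per passage.

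Each array held F/- RNA in Cy3 and F/+ RNA in Cy5 of a pair of cultures (pair 1 or pair 2). No array had the dyes exchanged, so a dye effect and a genotype effect cannot be told apart in any ratio below. It cancels in the difference between passages where it is equal on all arrays. The source name of the Cy5 sample on both passage 3 arrays gives the first passage, whereas the titles, descriptions and passage entries give passage 3 and were followed. The arrays shared 1 slide and 1 scan. On the 4 arrays, the share of gene spots called well above background ran from 75.8% to 85.4% for F/- (Cy3) and from 80.6% to 87.9% for F/+ (Cy5), and 0 were saturated. The single Casp8 probe, whose position relative to the loxP sites is not given in the sources used here, had log2 ratios of 0.47 and -0.20 at passage 3 and of 0.42 and 0.18 at passage 1. It therefore says nothing about the deletion. The cultures held strong keratinocyte signal: the summed channel level of 8 keratinocyte markers lay between 525356 and 571553 in F/- and between 706569 and 714146 in F/+ at passage 3, and between 548794 and 586505 in F/- and between 636368 and 722375 in F/+ at passage 1.

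Hair follicles renew through cycles of growth, regression and rest, and their stem cells lie in the bulge below the sebaceous gland, in the hair germ under it and in the junctional zone above it. Lgr5 and Lgr6 are receptors for R-spondins, which strengthen Wnt signalling, and mark cycling lower-follicle cells and cells of the upper follicle. Sox9, Lhx2, Tcf7l1, Nfatc1 and Runx1 are transcription factors of bulge or germ cells, Gli1 is a target and effector of hedgehog signalling, Cd34 is a surface glycoprotein of mouse bulge cells, and Lrig1 is a membrane protein of the junctional zone that dampens epidermal growth factor receptor signalling. Because bulk cultures were measured, fewer cells of a type and less RNA per cell cannot be told apart.

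Of the 17 probes, 16 were well above background in both channels on all 4 arrays, at least 1 for each of the 10 genes. The exception was the second Lgr5 probe, A_52_P30169, which was well above background on 0 arrays in either channel and was left out. Across these 16 probes, 3 genes had a probe that passed a test: Lgr6, Tcf7l1 and Cd34. The stretches upstream of these 3 genes are shown because they are the members with a probe that passed, although calls of all 3 depended on the arrays used, as given below. They were taken from RefSeq promoters of build GRCm38.p6, which hold an entry for 6 of the 10 members, and run 5′ to 3′ on the gene's strand over the 250 bases before the start site of the entry. The start site of the Lgr6 entry lies inside the annotated span of the gene, so 98 of its 250 bases lie within that span and only the 152 bases outside it are printed. Capitals mark matches, on either strand, to any of the motifs searched.
Lgr6, chr1:135105375-135105526, minus strand: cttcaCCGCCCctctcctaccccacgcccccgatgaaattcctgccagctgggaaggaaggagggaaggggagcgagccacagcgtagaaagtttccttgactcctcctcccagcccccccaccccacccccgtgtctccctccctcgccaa
Tcf7l1, chr6:72789046-72789295, minus strand: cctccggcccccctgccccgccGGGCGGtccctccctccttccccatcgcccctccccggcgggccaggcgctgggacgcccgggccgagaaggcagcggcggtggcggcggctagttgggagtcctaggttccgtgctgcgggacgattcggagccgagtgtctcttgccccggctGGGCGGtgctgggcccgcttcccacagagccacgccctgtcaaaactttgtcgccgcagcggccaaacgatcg
Cd34, chr1:194938571-194938820, plus strand: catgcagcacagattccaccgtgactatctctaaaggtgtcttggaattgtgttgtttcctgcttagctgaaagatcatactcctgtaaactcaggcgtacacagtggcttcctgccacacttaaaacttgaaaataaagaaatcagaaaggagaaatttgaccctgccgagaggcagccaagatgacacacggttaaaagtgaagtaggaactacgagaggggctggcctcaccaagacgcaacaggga

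The motifs searched were those of the members' own factor families and 3 core promoter elements. Of all 32851 RefSeq promoter windows of the same length, CTTTGAT and CTTTGAA (TCF/LEF factors, such as Tcf7l1) occurred in 3.21% and 4.46%, ACAATGG and ACAAAGG (SOX factors) in 3.02% and 5.08%, and GACCACCCA (GLI factors) in 0.225%. GGAAAA (NFAT factors) occurred in 20.4%, TGTGGT (RUNX factors) in 14.1% and TAATTA (LIM homeodomain factors, such as Lhx2) in 4.84%. The GC box GGGCGG occurred in 32.7%, CCAAT in 33.9% and TATAAA in 12.4%. No motif of a member's factor family had a match in the full windows of these 3 genes. The GC box had 1 match upstream of Lgr6 and 2 upstream of Tcf7l1, and no motif searched matched upstream of Cd34. The Lgr6 and Tcf7l1 windows held 65.2% and 73.6% G and C bases, the Cd34 window 46.4%, against a median of 52.4% over all windows.

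The first question was whether F/- keratinocytes differed from F/+ keratinocytes in these genes. Ratios are log2 of F/- over F/+, so 1 unit is 2-fold and a positive value means higher in F/-. Over all probes tested, 0 of 35563 passed an adjusted p of 0.05 at passage 3 alone and 0 at passage 1 alone (limma, Benjamini-Hochberg over all probes), a background of 0% at each, although 20% and 20.6% had an unadjusted p under 0.05, as did 5 and 6 of the 16 stem cell gene probes. In the mean over both passages 3145 probes passed, a background of 8.84%, with 5.85% higher and 2.99% lower. Of the 16 stem cell gene probes, 0 passed at either passage, and 2 passed in the mean of both: an Lgr6 probe was higher and a Tcf7l1 probe lower in F/-. The ratio had one sign on all 4 arrays for 5 of the 16 probes, against 38.9% of all probes: 4 were positive throughout and 1 negative, against 19% and 19.9% of all probes. The difference in ratio between passage 3 and passage 1 passed for 0 of 35563 probes, a background of 0%. At an unadjusted p under 0.05 it held 4 of the 16 stem cell gene probes, against 5.83% of all probes: both Lgr6 probes, that of Cd34 and a Tcf7l1 probe. The sign on both passage 3 arrays was opposite to that on both passage 1 arrays for 2 of the 16, against 7.82% of all probes. The counted probes of the 10 genes, the brightest kept probe of each, had a median ratio of 0.07 at passage 3, -0.03 at passage 1 and 0.06 in the mean, against -0.02 for all 24026 genes tested in each of these comparisons. The list as a whole thus lay near the median of all genes, and its members differed among themselves: their mean ratios ran between -0.31 and 0.74.

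**Figure D1:**
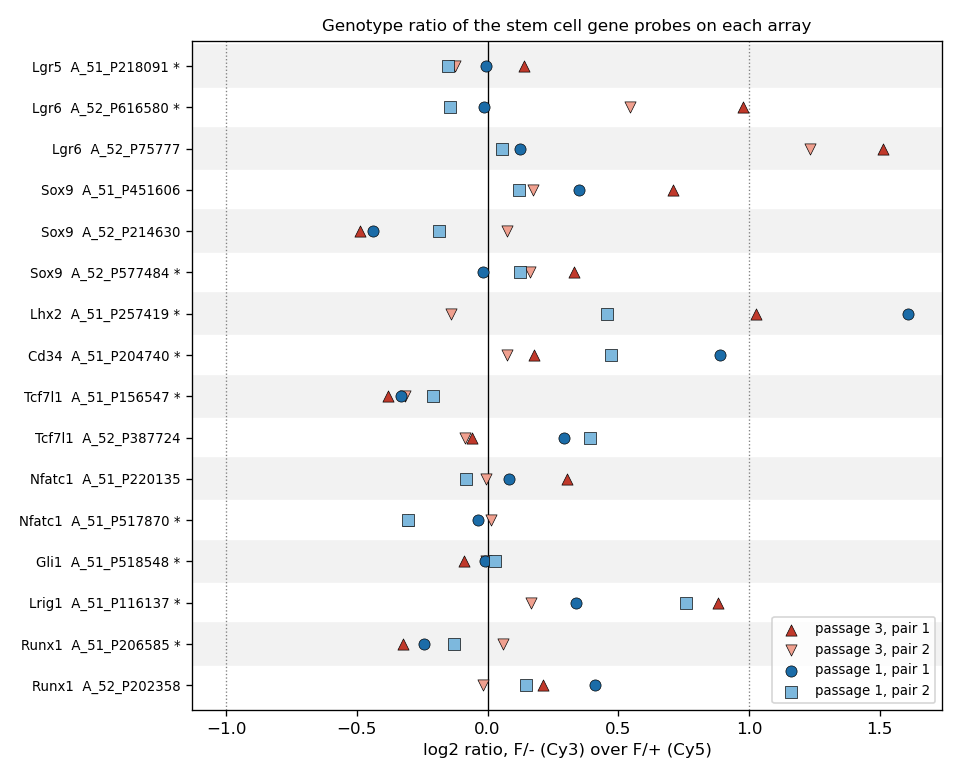
Log2 ratios of F/- over F/+ for the 16 probes well above background (rows; an asterisk marks the counted probe of a gene), with 1 symbol per array and dotted lines at 2-fold. Both Lgr6 probes lie to the right at passage 3 and near 0 at passage 1, Gli1 and Lgr5 lie near 0 on every array, and the probes of Sox9, of Tcf7l1 and of Runx1 lie on different sides of 0.

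Of the R-spondin receptors, Lgr6 (chromosome 1, 134983300 to 135105374, GRCm38.p6) had larger ratios on both passage 3 arrays than on both passage 1 arrays. Its probe A_52_P75777 had log2 ratios of 1.51 and 1.23 at passage 3, against 0.12 and 0.06 at passage 1. Its other probe, A_52_P616580, which is the counted one, had ratios of 0.98 and 0.54 at passage 3, against -0.01 and -0.15 at passage 1. The arrays of the 2 passages did not overlap for either probe. The first probe was past 2-fold higher on both passage 3 arrays, as were 0.0874% of all probes. The ratios at passage 3 averaged 1.37 ± 0.20 and 0.76 ± 0.31 (SD, n = 2 arrays), with limma adjusted p of 0.079 and 0.085, of which the first equals the smallest of any probe at that passage. In the mean of both passages Lgr6 rose by 0.73 ± 0.75 (SD, n = 4 arrays, limma adjusted p = 0.0257) on the first probe, and the counted probe gave 0.34 ± 0.52 (adjusted p = 0.0827). The call of the first probe was lost without either passage 1 array (adjusted p = 0.147 and 0.0824), without the passage 3 array of pair 1 (0.0684) and with the arrays of each pair averaged (0.0509). The difference in ratio between passage 3 and passage 1 was 1.28 ± 0.14 (SE) and 0.84 ± 0.18 (SE), with unadjusted p of 0.000299 and 0.00582 and a limma adjusted p of 0.82 for both.

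Lgr5 (chromosome 10, 115450314 to 115587780), the relative of Lgr6 that marks cycling cells of the lower follicle, stayed close to background. Its kept probe had raw Cy3 signals of 66.8 and 73.4 at passage 3 and of 67.9 and 87.4 at passage 1, over local backgrounds of 37 to 43. The log2 ratios were 0.14 and -0.12 at passage 3 and -0.01 and -0.15 at passage 1, and neither passage stood apart. The mean ratio was -0.04 ± 0.13 (SD, n = 4 arrays, limma adjusted p = 0.782).

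Gli1 (chromosome 10, 127329882 to 127341579) was likewise dim, with raw Cy3 signals between 70.6 and 97.0. It was printed in 10 spots per array, and its ratio had the smallest SD between arrays of the 16 probes. The ratios were -0.09 and -0.01 at passage 3 and -0.01 and 0.03 at passage 1, while the spots of 1 array had an SD between 0.061 and 0.087. The mean ratio of -0.02 ± 0.05 (SD, n = 4 arrays, limma adjusted p = 0.845) was smaller than that spread between spots. At signals this close to background a ratio is pulled towards 0 by the offset of 50 added before the logarithm, so a difference may not be detectable.

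Lhx2 and Cd34, a LIM homeodomain factor and a surface glycoprotein of the bulge, had higher ratios on average at passage 1. Lhx2 (chromosome 2, 38339271 to 38369737) had log2 ratios of 1.03 and -0.14 at passage 3, against 1.61 and 0.46 at passage 1. The passages overlapped, and the difference of -0.59 ± 0.54 (SE) between passage 3 and passage 1 had a limma adjusted p of 0.931. Pair 1 was the higher of the pairs at both passages, by more than 1 log2 unit each time. The mean ratio was 0.74 ± 0.75 (SD, n = 4 arrays, limma adjusted p = 0.156). With the pair as a block, taking the same pair number at both passages as the same animals, the same ratio had an adjusted p of 0.028. The block takes the difference between pairs out of the error, so this value does not measure the spread between animals. With the arrays of each pair averaged, which keeps that difference in the error, the adjusted p was 0.211.

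Cd34 (chromosome 1, 194938821 to 194961292) had ratios of 0.18 and 0.07 at passage 3, against 0.89 and 0.47 at passage 1. All 4 arrays were positive and the passages did not overlap, a separation whose share among all probes was not counted. The mean ratio of 0.40 ± 0.37 (SD, n = 4 arrays) had a limma adjusted p of 0.0566, of 0.0475 with the pair as a block and of 0.083 with the arrays of each pair averaged. The ratio at passage 1, 0.68 ± 0.29 (SD, n = 2 arrays), had an adjusted p of 0.0957, and the difference of -0.55 ± 0.17 (SE) between passage 3 and passage 1 an adjusted p of 0.827.

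Lrig1 (chromosome 6, 94604529 to 94700298), the junctional zone protein that opposes epidermal growth factor receptor signalling, had ratios of 0.88 and 0.17 at passage 3 and of 0.34 and 0.76 at passage 1. It was positive on all 4 arrays, and the passages overlapped. Its mean ratio was 0.54 ± 0.34 (SD, n = 4 arrays, limma adjusted p = 0.0853).

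Tcf7l1 (chromosome 6, 72626371 to 72789045), a TCF/LEF factor that represses Wnt targets in bulge cells, was read by a pair of probes that disagreed. Its counted probe, A_51_P156547, had log2 ratios of -0.38 and -0.31 at passage 3 and of -0.33 and -0.21 at passage 1. All 4 arrays were negative, and the genotypes differed by less than 2-fold on each. The level fell by 0.31 ± 0.07 in F/- (SD, n = 4 arrays, limma adjusted p = 0.0432). The adjusted p was 0.0566 with the pair as a block and 0.0773 with the arrays of each pair averaged. It was 0.0678 with an offset of 0 and 0.0939 with the scanner software's own ratio. The call was also lost with each array left out in turn, at adjusted p between 0.0709 and 0.182. The other probe of the gene, A_52_P387724, had ratios of -0.06 and -0.09 at passage 3, against 0.29 and 0.39 at passage 1, with a mean of 0.13 ± 0.24 (SD, n = 4 arrays, adjusted p = 0.183). Both probes carry the same RefSeq accession, so a direction for Tcf7l1 rests on which probe is read.

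The other transcription factors gave no call. Sox9 (chromosome 11, 112782210 to 112787757), which is needed to form and keep bulge stem cells, was read by 3 probes of the same accession. The counted probe, A_52_P577484, had ratios of 0.33 and 0.16 at passage 3 and of -0.02 and 0.12 at passage 1. Probe A_52_P214630, printed in 10 spots per array, had -0.49 and 0.07 at passage 3 and -0.44 and -0.19 at passage 1, with an SD between spots of 0.018 to 0.040. Probe A_51_P451606 had 0.71 and 0.17 at passage 3 and 0.35 and 0.12 at passage 1. The mean ratios of the 3 probes were 0.15 ± 0.14, -0.26 ± 0.26 and 0.34 ± 0.27 (SD, n = 4 arrays each), with limma adjusted p of 0.195, 0.205 and 0.118. Their signs differ, and under median centring of the arrays in place of loess the counted probe turned to -0.27.

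Runx1 (chromosome 16, 92601466 to 92826074), a factor that promotes entry into the growth phase, was also split between probes. Its counted probe, A_51_P206585, had ratios of -0.32 and 0.06 at passage 3 and of -0.24 and -0.13 at passage 1. Probe A_52_P202358 had 0.21 and -0.02 at passage 3 and 0.41 and 0.15 at passage 1. The mean ratios, -0.16 ± 0.17 and 0.19 ± 0.18 (SD, n = 4 arrays each), had limma adjusted p of 0.277 and 0.184. Nfatc1, a calcineurin-dependent factor that holds bulge cells quiescent, had ratios of -0.30 and 0.01 at passage 3 and of -0.04 and -0.30 at passage 1 on its counted probe A_51_P517870. Its probe A_51_P220135 had 0.31 and -0.01 at passage 3 and 0.08 and -0.08 at passage 1. The mean ratios were -0.16 ± 0.17 and 0.08 ± 0.17 (SD, n = 4 arrays each, limma adjusted p = 0.291 and 0.57).

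The second question was how the genes differed between passages within each genotype. Here log2 channel intensities were compared at passage 3 and passage 1 in a separate-channel fit, in which F/- and F/+ share arrays. Over all 35464 probes tested, 5.11% passed in F/- (2.89% higher, 2.22% lower at passage 3) and 5.66% passed in F/+ (3.23% higher, 2.42% lower). Of the 16 stem cell gene probes, 2 passed in F/-, both of Lgr6 and both higher at passage 3. In F/+ 1 passed, that of Cd34, also higher at passage 3. Both passage 3 levels lay above both passage 1 levels for 5 probes in F/- and 5 in F/+, against 29.2% and 27.2% of all probes. They lay below them for 5 probes in F/- and 6 in F/+, against 27.5% and 24.7% of all probes.

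**Figure D2:**
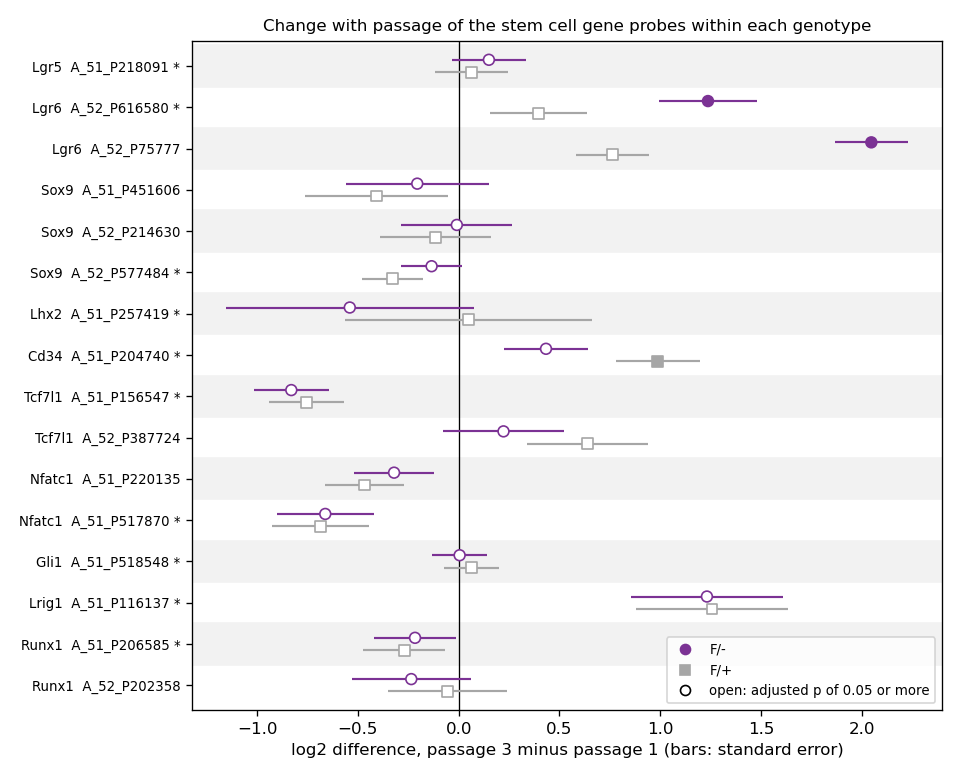
Log2 difference in channel level between passage 3 and passage 1 for the 16 probes (rows; asterisk: counted probe), in F/- (circles) and F/+ (squares), with standard errors from the separate-channel fit. Filled symbols passed an adjusted p of 0.05: both Lgr6 probes in F/-, at 1.24 and 2.05, and Cd34 in F/+, at 0.99.

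Lgr6 rose with passage in F/- cultures. Probe A_52_P75777 had log2 levels of 8.70 and 8.37 in F/- and of 7.19 and 7.14 in F/+ at passage 3, against 6.59 and 6.39 in F/- and 6.47 and 6.33 in F/+ at passage 1. Counted probe A_52_P616580 had 8.37 and 7.87 in F/- and 7.39 and 7.32 in F/+ at passage 3, against 7.08 and 6.69 in F/- and 7.09 and 6.83 in F/+ at passage 1. On both probes the F/- cultures of passage 3 were the highest of the 8 RNA samples, and F/+ cultures of passage 3 lay above all of passage 1.

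The change in F/- was 2.05 ± 0.18 (SE) on A_52_P75777 and 1.24 ± 0.24 (SE) on A_52_P616580, which are 4.13-fold and 2.36-fold, with limma adjusted p of 0.00166 and 0.0334. In F/+ the differences were 0.76 ± 0.18 (SE) and 0.40 ± 0.24 (SE), with adjusted p of 0.0566 and 0.39. Whether the change differs between genotypes is the difference in ratio given above, at an adjusted p of 0.82. Without either passage 1 array both calls in F/- were lost, at adjusted p between 0.0736 and 0.331, while the differences stayed between 1.06 and 2.17. At passage 1 both probes were dim, as given above, and the size of the change moved with the offset. With an offset of 0 in the background correction the change of A_52_P75777 was 3.11 in F/- and 1.54 in F/+. The change in F/+ passed in that setting (limma adjusted p = 0.00907). It also passed with no background subtraction, at 0.83 (adjusted p = 0.0477).

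Markers of other skin cells moved in the same arrays. The summed level of 8 fibroblast markers was 13535 to 27729 in F/- and 6842 to 8228 in F/+ at passage 3, against 1996 to 2029 in F/- and 1418 to 1883 in F/+ at passage 1. Fn1, fibronectin, which epithelial cells also make in culture, rose by 4.98 in F/- and 4.47 in F/+ with passage (limma adjusted p = 0.000897 and 0.00113), and no other fibroblast marker passed. The 8 differences between passage 3 and passage 1 had a median of 0.29 in F/-, with 7 positive, and of 0.00 in F/+, with 4 positive, and Pdgfra, a fibroblast receptor, had -0.13 in F/- and -0.84 in F/+. The summed level of 9 leukocyte markers was 7948 to 12794 in F/- and 2865 to 3029 in F/+ at passage 3, against 23699 to 34507 in F/- and 21726 to 24359 in F/+ at passage 1. Lyz2 and Ctss were the brightest of these markers, at log2 levels of 14.06 and 12.86 in F/- at passage 1. Their mean genotype ratios at passage 3 were 2.21 and 2.40. The 9 ratios at passage 3 had a median of 0.39, with 8 positive and the lowest at -0.08. With passage 0 of the 9 differences were positive, with medians of -1.21 in F/- and -1.32 in F/+. The part of these cells in the Lgr6 values was not tested.

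Cd34 rose with passage in F/+ cultures. Its log2 levels were 8.86 and 8.87 in F/- and 8.68 and 8.79 in F/+ at passage 3, against 8.45 and 8.42 in F/- and 7.56 and 7.94 in F/+ at passage 1. The F/+ cultures of passage 1 stood lowest, and all cultures of passage 3 lay above all of passage 1. The change was 0.99 ± 0.21 (SE) in F/+, which is 1.98-fold (limma adjusted p = 0.0401), and the difference in F/- was 0.43 ± 0.21 (SE, adjusted p = 0.295). The call in F/+ was lost with the pair as a block (adjusted p = 0.0506) and when any 1 of the 4 arrays was left out. Cd34 is also a marker of endothelial and blood progenitor cells. The summed level of 7 endothelial markers was 755 to 798 in F/- and 760 to 772 in F/+ at passage 3, against 1463 to 1714 in F/- and 1695 to 1871 in F/+ at passage 1. Kdr was the only marker of these 7 that passed, and 3 of 7 had positive differences between passage 3 and passage 1 in each genotype, with medians of -0.18 in F/- and -0.12 in F/+. The part of endothelial cells in the Cd34 values was not tested. Of these 7 markers, 5 were well above background in both channels on all 4 arrays, as were all 8 fibroblast and all 9 leukocyte markers.

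Lrig1 was higher at passage 3 in both genotypes. Its log2 levels were 14.19 and 14.35 in F/- and 13.31 and 14.19 in F/+ at passage 3, against 12.71 and 13.36 in F/- and 12.38 and 12.60 in F/+ at passage 1. The passages did not overlap within either genotype. The difference was 1.23 ± 0.38 (SE) in F/- and 1.26 ± 0.38 (SE) in F/+, with limma adjusted p of 0.121 and 0.111. Without the passage 3 array of pair 1, which leaves 1 array at that passage, the differences were 1.33 in F/- and 1.71 in F/+.

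**Figure D3:**
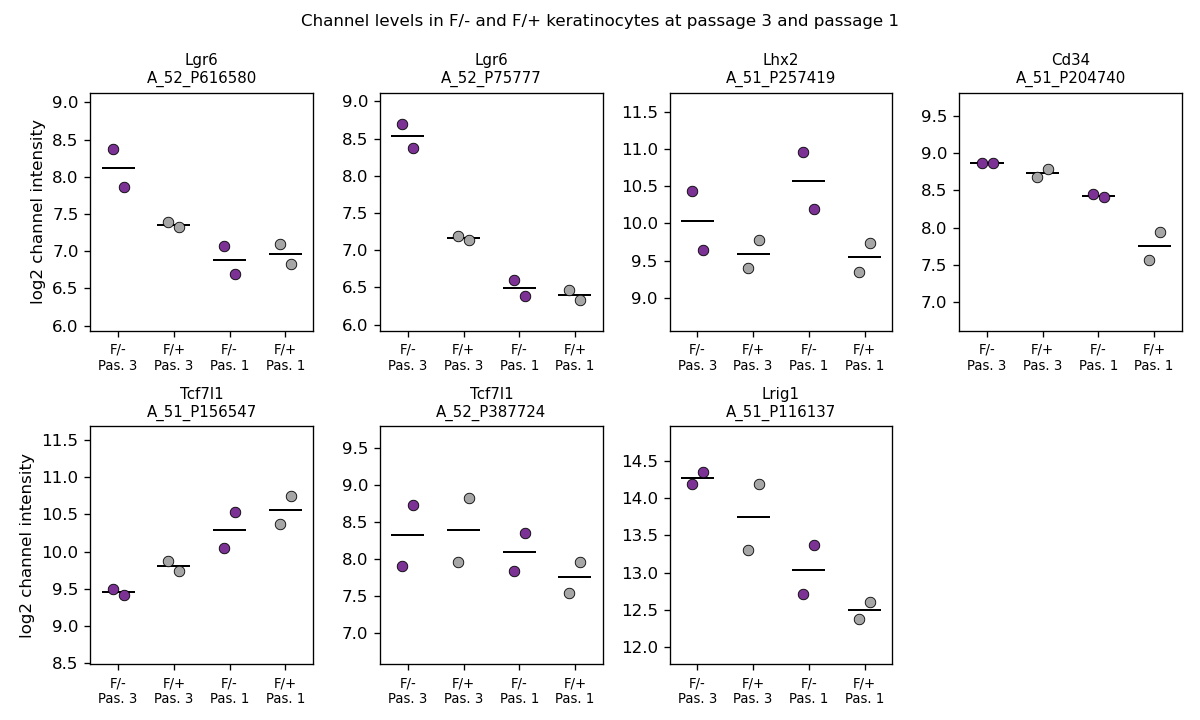
Log2 channel levels of the probes of Lgr6, Lhx2, Cd34, Tcf7l1 and Lrig1 in the 8 RNA samples, with F/- in purple, F/+ in grey, pair 1 left of pair 2 and the mean of a group as a line. Each panel spans the same number of log2 units but starts at its own level. The F/- cultures of passage 3 stand highest for both Lgr6 probes, and the F/+ cultures of passage 1 lowest for Cd34.

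The counted Tcf7l1 probe was lower at passage 3 in both genotypes. Its log2 levels were 9.49 and 9.42 in F/- and 9.87 and 9.74 in F/+ at passage 3, against 10.04 and 10.53 in F/- and 10.38 and 10.74 in F/+ at passage 1. The differences of -0.83 ± 0.19 (SE) in F/- and -0.75 ± 0.19 (SE) in F/+ had limma adjusted p of 0.0505 and 0.0638. The other probe gave 0.22 ± 0.30 (SE) and 0.64 ± 0.30 (SE), with adjusted p of 0.709 and 0.279, and so did not share the direction.

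Nfatc1 was lower at passage 3 on both of its probes and in both genotypes. The counted probe had log2 levels of 7.75 and 7.45 in F/- and 8.05 and 7.43 in F/+ at passage 3, against 8.40 and 8.12 in F/- and 8.44 and 8.42 in F/+ at passage 1. The differences were -0.66 ± 0.24 (SE) in F/- and -0.69 ± 0.24 (SE) in F/+ on this probe, and -0.32 ± 0.20 (SE) and -0.47 ± 0.20 (SE) on the other, with limma adjusted p between 0.16 and 0.403. Lhx2 gave differences of -0.54 ± 0.61 (SE) in F/- and 0.05 ± 0.61 (SE) in F/+, with the widest errors of the set. Sox9 gave -0.13 ± 0.15 (SE) in F/- and -0.33 ± 0.15 (SE) in F/+ on its counted probe, and Runx1 gave -0.22 ± 0.20 (SE) in F/- and -0.27 ± 0.20 (SE) in F/+. Gli1 and Lgr5 gave 0.00 ± 0.14 (SE) and 0.15 ± 0.18 (SE) in F/-, and 0.06 ± 0.14 (SE) and 0.06 ± 0.18 (SE) in F/+. None of these values passed, with adjusted p of 0.272 or more for the counted probes of these 5 genes.

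The members signal through pathways whose other genes were read beside them, each through its brightest kept probe. The genotype calls of these lists and of the marker lists treat 2 passages of the same animals as separate arrays. With the arrays of each pair averaged, 0 of 35464 probes passed, so none of these genotype calls held in that setting. Over all genes read in this way, 4.70% rose and 3.43% fell in F/- in the mean of both passages, and with passage 3.30% rose and 2.47% fell in F/- and 3.78% rose and 2.56% fell in F/+. Of 10 hedgehog genes, which act with Gli1, 9 were tested, the ligand gene Shh being too dim to keep. Gli2, the main activating partner of Gli1, rose in F/- with ratios of 0.33 and 0.13 at passage 3 and 0.60 and 0.52 at passage 1 (mean 0.39, limma adjusted p = 0.0351). Boc, a co-receptor, had 0.53 and 0.44 at passage 3 and 0.30 and 0.21 at passage 1 (mean 0.37, adjusted p = 0.032) and rose as well. With passage Gli2 fell by 1.05 in F/- (adjusted p = 0.0166). The list's median ratio was 0.06 in the mean of both passages.

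Of 18 Wnt and R-spondin genes, Rspo1, an R-spondin and so a ligand of the Lgr receptors, rose in F/-. Its ratios were 0.60 and 0.44 at passage 3, against 0.14 and 0.13 at passage 1 (mean 0.33, limma adjusted p = 0.0407). The difference in ratio between passage 3 and passage 1 was 0.38, with a limma adjusted p of 0.825. Rspo1 also rose with passage by 1.10 in F/- (adjusted p = 0.0197), and the difference in F/+ was 0.72 (adjusted p = 0.0717). Lef1, the TCF/LEF factor of hair matrix cells, fell with passage by 0.95 in F/- and 1.46 in F/+ (adjusted p = 0.0328 and 0.00617). The median ratio of this list was 0.07.

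Among 17 other follicle and sebaceous progenitor genes, 5 fell and 1 rose in F/- in the mean of both passages, against 3.43% and 4.70% of all genes. Cd200, a bulge surface protein, rose by 0.66 (limma adjusted p = 0.0375). Plet1, of the junctional zone, fell by 0.98 (adjusted p = 0.0257) with ratios of -1.11 and -0.85 at passage 3 and -1.07 and -0.89 at passage 1. Barx2, a homeobox factor, fell by 1.05, Fst, the activin antagonist follistatin, by 0.66, Krt15, a bulge keratin, by 0.45, and Lrig2, a relative of Lrig1, by 0.32, with adjusted p between 0.0316 and 0.0473. With passage Prdm1, Fst and Plet1 fell in both genotypes, and Krt19, a bulge keratin, rose by 1.72 in F/+ (adjusted p = 0.0271). Prdm1 had the largest drop in F/+, where it fell by 2.58 (adjusted p = 0.00177), and Fst in F/-, where it fell by 2.63 (adjusted p = 0.00464). The median ratio of this list was -0.08.

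Of 10 hair lineage transcription factors, Ovol1, which drives exit from proliferation, fell by 0.56 in F/- (limma adjusted p = 0.0261), and with passage it fell, at log2 changes of -3.74 in F/- and -4.36 in F/+ (adjusted p = 0.000176 and 0.000107). Cux1 rose by 1.09 with passage in F/+ (adjusted p = 0.0298). Of 12 BMP genes, Bmp6, a ligand that holds bulge cells quiescent, rose by 0.38 in F/- (adjusted p = 0.0318), Bmp4 fell by 0.92 with passage in F/- (adjusted p = 0.022) and Id3, a BMP target, rose by 1.21 with passage in F/+ (adjusted p = 0.0253). Of 10 NFAT and CBF partner genes, the calcineurin subunits Ppp3ca and Ppp3cb, which activate Nfatc1, fell by 0.53 and 0.28 in F/- (adjusted p = 0.0459 and 0.0442). The median ratios of these 3 lists were -0.06, 0.00 and -0.04.

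**Figure D4:**
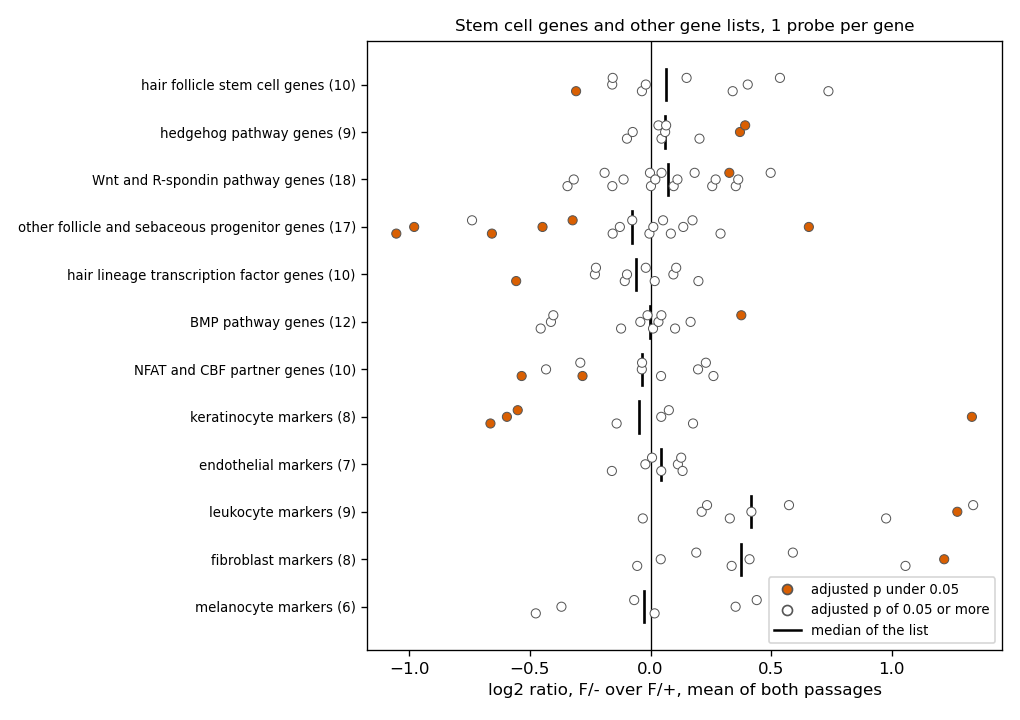
Log2 ratios of F/- over F/+ in the mean of both passages for the stem cell genes and the other lists (rows, with the number of genes tested), 1 point per gene, filled where the adjusted p was under 0.05, with a black line at the list's median. The stem cell genes have a median of 0.06, and the leukocyte and fibroblast markers lie further to the right, at 0.42 and 0.37.

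Among the marker lists, the keratinocyte genes were mixed. Krt5, Krt14 and Perp fell by 0.60, 0.66 and 0.55 in F/-, and Lamb3, a laminin subunit of the basement membrane, rose by 1.33 (limma adjusted p = 0.0318, 0.0261, 0.0261 and 0.0455). Of the leukocyte markers Lyz2 rose by 1.27 and of the fibroblast markers Fn1 by 1.22 in F/- (adjusted p = 0.0258 and 0.0257), with 8 of 9 and 7 of 8 ratios positive, against 43.1% of all genes. No endothelial or melanocyte marker passed in the genotype ratio. With passage Kdr, of endothelial cells, fell in both genotypes, at log2 changes of -2.49 in F/- and -2.86 in F/+, and so did Cd68, of macrophages, at -1.95 and -1.86. The pigment genes Dct and Mlana fell too, at -1.06 and -2.10 in F/- and at -1.41 and -2.06 in F/+ (adjusted p of these 4 genes between 0.000374 and 0.0124). Tyrp1 fell in F/- at -1.46, and Lyz2, Tyrobp and Ctss fell in F/+ at -3.09, -2.48 and -4.60 (adjusted p between 0.00382 and 0.0377). The part of these cells in the values of the stem cell genes was not tested.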

How the data were processed

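The 4 deposited scanner files hold raw intensity (mean signal and median local background) per spot and channel, per the file headers, and come, per the submitters' processing notes, from the scanner software Agilent Feature Extraction (version 9.1.3.1). The authors' deposited value table holds log10 ratios that equal the scanner software's own ratio with its sign turned (largest gap 4.96e-06), that is Cy3 over Cy5; it served as an alternative.

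In R 4.3.3 with limma 3.58.1, normexp (offset 50) removed background and loess normalized each array. Control and outlier spots had weight 0, and spots of a probe were averaged. Of 41174 probes, 35563 were kept because 2 or more arrays showed them well above background in either channel. The ratio fit took the 4 arrays together, grouped by passage. Passage was fitted within genotype on separate channels after Aquantile, with a correlation of 0.741 between channels of a spot, on the 35464 kept probes measured on all arrays. p-values were adjusted by Benjamini-Hochberg over all kept probes and called at 0.05, two-sided. The number of arrays limits the precision, and 2 passages of 1 animal are not independent animals. The series' design text states 2 mice per genotype sampled at both passages. Pairs of the same number were therefore taken to share animals, which the sample titles do not state. Deviations of same-numbered arrays correlated at -0.000471. The pair was an alternative block, fitted as a fixed effect that takes the difference between pairs out of the error. Fits were tested on simulated data.

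A gene with several kept probes was counted through the brightest. Every member probe is described; of the other lists, genes called in any comparison are named. No counted probe was past 2-fold in one direction on both arrays of a passage, so no genes of like pattern are named. Members and lists were chosen with earlier results of these data known. Symbols and coordinates follow a RefSeq table of assembly GRCm38.p6; the arrays have no build of their own.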

Additional observations from a re-analysis of the deposited data

Results flagged for a closer look

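In 2 of the 16 stem cell gene probes (12.5%) the genotype ratio had one sign on both passage 3 arrays and the other on both passage 1 arrays, as in 7.82% of all probes. The counted Lgr6 probe, A_52_P616580, had log2 ratios of 0.98 and 0.54 at passage 3, against -0.01 and -0.15 at passage 1. The difference of 0.84 had an unadjusted p of 0.00582 and a limma adjusted p of 0.82. The second Tcf7l1 probe, A_52_P387724, had -0.06 and -0.09 at passage 3, against 0.29 and 0.39 at passage 1. The difference of -0.42 had an unadjusted p of 0.0125 and an adjusted p of 0.82. By that test 0 of 35563 probes passed, with 2073 at an unadjusted p under 0.05.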

How the results depend on the processing

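Precision was limited by the number of arrays, 2 per passage, from 2 animals per genotype; with 1 slide, no slide block could be fitted. Lgr5 and Gli1 lay close to background, as did both Lgr6 probes at passage 1. Over 96 results of the member probes and 1008 recomputed values, 904 kept their side of the threshold and, where called in neither setting, moved by less than the spread (1 SD of the arrays, or 1 SE), 70 values called in neither setting moved by more, 21 calls were lost, 13 were gained, 0 called values changed sign, and 51 values called in neither setting did. The genotype count in the mean of both passages, 3145 probes, was 1933 with the scanner software's own ratio, 3967 with median centring of each array, 3242 with the replicate block, 0 with the arrays of each pair averaged (smallest adjusted p 0.0509) and 0 to 3966 without 1 array. Of the calls, 66.2% were higher in F/-, against 23.1% under median centring. The 2 member calls in that comparison became 1 with the scanner ratio, 0 with pairs averaged and 0 to 4 without 1 array; with the replicate block there were 3, of Lgr6, Lhx2 and Cd34. At passage 1 alone, an offset of 0 gave 69 calls. With passage, 1813 calls in F/- and 2006 in F/+ were 107 to 3118 and 187 to 4566 without 1 array, and 1310 and 1469 with the replicate block. The 2 member calls in F/- were 0 to 3 without 1 array, and the 1 in F/+ was 2 with no background subtraction, 2 with an offset of 0, 0 with the block and 0 to 3 without 1 array. The cause was not tested, apart from the fewer arrays. Separate-channel fits with the block or without an array used the correlation of 0.741, since their own could not be estimated, and a passage left with 1 array was assumed to vary like the other. Averaging all kept probes of a gene moved the members' median at passage 1 to 0.02, and left it at 0.07 at passage 3 and 0.05 in the mean.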
